A study of Mus musculus with 8 samples.

Results

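The 29 genes described here make cholesterol and control its level in the cell. They are 19 enzymes of the synthesis pathway, 5 genes of the SREBP control loop and 5 genes of sterol transport, efflux and uptake control. The genes were named as a pathway, by symbol, but with earlier results of these data known. All 29 were found among the 32285 genes counted. They were followed in mouse blood-forming cells at the end of gestation and just after birth, in 6 single-cell libraries that hold raw counts of unique molecular identifiers (UMIs, 1 per captured RNA molecule). The sort behind every library kept Lin- Sca-1+ Kit+ cells that were also Epcr+, a surface gate for haematopoietic stem cells.

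Wild-type P2 pups, 2 days old, gave 3 libraries (bone marrow, liver, spleen), and 7 mice were merged for them. A further wild-type library came from E19 embryos, about 19 days after fertilization. Its title names bone marrow while its tissue label names fetal liver, so it is called E19 here. The last 2 libraries, tube 1 and tube 2, came from 2 P2 pups carrying Tppp3CreER and LSLTdTomato, both given tamoxifen at P0. In such pups a Cre driven by Tppp3 marks with tdTomato the cells that expressed Tppp3 at the time of tamoxifen, and their descendants. Tube 1 held tdTomato-positive cells of pup 1 with negative cells of pup 2, and tube 2 the opposite, and hashtags told bone marrow from spleen. All cells of the 2 pups, positive and negative, therefore carry the transgenes and saw tamoxifen. The labels give batch 1 to the pool, batch 2 to E19 and batch 3 to the pups. Each tissue and age is 1 library, so age, batch and software version cannot be told apart between E19 and P2.

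Cholesterol is built from acetyl-CoA. The mevalonate branch (Acat2, Hmgcs1, Mvk, Pmvk, Mvd, Idi1, Fdps, Ggps1) makes isoprenoid units, which also serve protein prenylation, and the sterol branch (Fdft1, Sqle, Lss, Cyp51, Tm7sf2, Msmo1, Nsdhl, Hsd17b7, Ebp, Sc5d, Dhcr7) joins them to squalene, closes the rings and trims the product. When membrane sterol is low, Scap carries the SREBP proteins (Srebf1, Srebf2) from the endoplasmic reticulum to be cut, and the released factors switch on the enzymes. Insig1 and Insig2 hold Scap back when sterol is plentiful. Excess sterol makes ligands for LXR (Nr1h2 encodes LXR beta), whose targets export cholesterol (Abca1, Abcg1) and degrade the lipoprotein receptor (Mylip). Stard4 moves sterol between membranes. In blood-forming tissue the efflux genes are known to restrain the growth of stem and progenitor cells.

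Upstream sequences of 3 members are shown because their RNA levels carry the comparisons that follow. Hmgcs1 and Mvd are enzymes near the start of the pathway, and Abca1 is an export gene on the opposite arm of the loop. Each run is the 250 bases before the RefSeq start site in GRCm38.p6, read 5′ to 3′ on the gene's strand, with motif matches in capitals:
Hmgcs1, chr13:119690101-119690350, plus strand: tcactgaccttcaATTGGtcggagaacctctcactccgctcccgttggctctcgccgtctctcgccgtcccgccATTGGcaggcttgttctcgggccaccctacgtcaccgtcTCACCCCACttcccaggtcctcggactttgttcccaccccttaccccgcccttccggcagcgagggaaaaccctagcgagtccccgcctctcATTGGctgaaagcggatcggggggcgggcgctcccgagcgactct
Mvd, chr8:122443423-122443672, minus strand: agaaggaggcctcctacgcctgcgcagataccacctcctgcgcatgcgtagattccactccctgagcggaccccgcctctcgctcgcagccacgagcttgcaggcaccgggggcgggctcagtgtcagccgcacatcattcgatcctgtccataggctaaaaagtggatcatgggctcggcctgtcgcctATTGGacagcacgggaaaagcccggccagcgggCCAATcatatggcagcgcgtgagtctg
Abca1, chr4:53159896-53160145, minus strand: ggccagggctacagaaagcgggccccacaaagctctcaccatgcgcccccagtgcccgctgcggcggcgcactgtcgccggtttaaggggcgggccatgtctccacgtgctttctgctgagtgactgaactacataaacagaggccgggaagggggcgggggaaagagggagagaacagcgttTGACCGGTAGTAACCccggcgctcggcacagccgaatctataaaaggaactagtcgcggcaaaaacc

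In Hmgcs1 the capitals mark TCACNCCAC, 1 published form of the sterol response element bound by SREBPs, at position -137 from the start site, and 3 CCAAT boxes read on the other strand as ATTGG at -237, -176 and -45. Mvd held CCAAT boxes at -60 and -27 and no match to that sterol element in this window. Abca1 held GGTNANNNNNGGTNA, the repeat known as an LXR element (DR4), at -67 on the other strand. These 3 motifs were searched on both strands and none overlapped another in the windows shown. Of the 29 members, 24 had an entry in the RefSeq table. The CCAAT box was found in 20 of the 24, among them 15 of 16 enzymes, against 37.5% of 27025 genes. TCACNCCAC was found in 1 of the 24, against 1.22% of genes, and DR4 in 2 of the 24 (Abca1 and 1 of the start sites of Srebf1), against 0.707%. A match describes these letters only.

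The 6 libraries held 42451 barcodes, between 2838 and 11323 each, and 37147 cells passed the filters of at least 1000 genes, at least 2000 UMIs and at most 10% mitochondrial UMIs. Between 0 and 25 barcodes were shared by any 2 libraries. Each cell was placed in the class whose list of 8 marker genes had the most genes with a UMI. For the stem class the list was Mecom, Hlf, Procr, Mllt3, Fgd5, Pdzk1ip1, Angpt1 and Esam, and a class needed at least 3 genes and a lead of 2. This is a gate on detected genes and not a cell type, and 2956 of the 16612 stem cells lay at its limits. Such stem-gated cells made up 25.1%, 3.5% and 19.5% of the P2 bone marrow, liver and spleen libraries, 81.6% of E19, 96.1% of tube 1 and 66.3% of tube 2. Most cells of the 3 pooled libraries thus fell outside the stem class despite the sort. The stem cells had a median of 6033 to 8222 UMIs in the pool and E19, and 20128 and 21836 in the tubes. Levels below are UMIs of the gene per 1000000 UMIs of all genes (CPM) in summed cells with exact 95% Poisson intervals, which cover counting error only. Levels of different genes are not compared.

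In stem-gated cells the sum of the 19 enzymes differed little between libraries, and most single members differed more. The ratio of the highest to the lowest library was 3.72 for Abca1, 2.46 for Abcg1 and 1.85 for Srebf2. For the enzymes Lss and Fdps, both highest in P2 liver, it was 2.55 and 2.05. The 19 enzymes together took 432 CPM in P2 bone marrow, 466 in P2 liver, 382 in P2 spleen, 364 in E19, 396 in tube 1 and 373 in tube 2. The highest library, P2 liver, rested on only 197 stem cells, with an interval of 435 to 499, and E19 was lowest with 359 to 368. The lowest place turned with the total used: without mitochondrial, ribosomal and hemoglobin UMIs, E19 (505) was above tube 1 (492) and tube 2 (460). The ratio of the highest to the lowest library was 1.57 for the median member. It ran from 1.19 for Ggps1, which makes the isoprenoid that anchors many small GTPases, to 3.72 for Abca1, the pump that hands cholesterol to lipid-poor lipoprotein particles.

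Abca1 stood at 11.3 CPM in P2 bone marrow, 30.7 in P2 liver, 11.8 in P2 spleen, 42.1 in E19, 24.7 in tube 1 and 36.8 in tube 2. Abcg1, its partner in cholesterol export, stood at 31.5, 55.8, 35.0, 77.5, 44.7 and 53.0 CPM in the same order. Both were lowest in the marrow and spleen of the pool and highest in E19. Srebf2, the SREBP that drives the cholesterol enzymes, stood at 89.9, 97.3, 77.8, 144, 108 and 109 CPM. These 3 members were the ones whose E19 interval lay above the intervals of all 5 P2 libraries, which 5.89% of the 11513 genes at or above the level of the lowest member also did. Ebp, the isomerase that shifts the ring double bond, was the 1 member whose E19 interval lay below all 5, against 9.83% of genes. Its CPM was 27.7 in E19 and 35.6 to 44.1 in the P2 libraries.

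**Figure D1:**
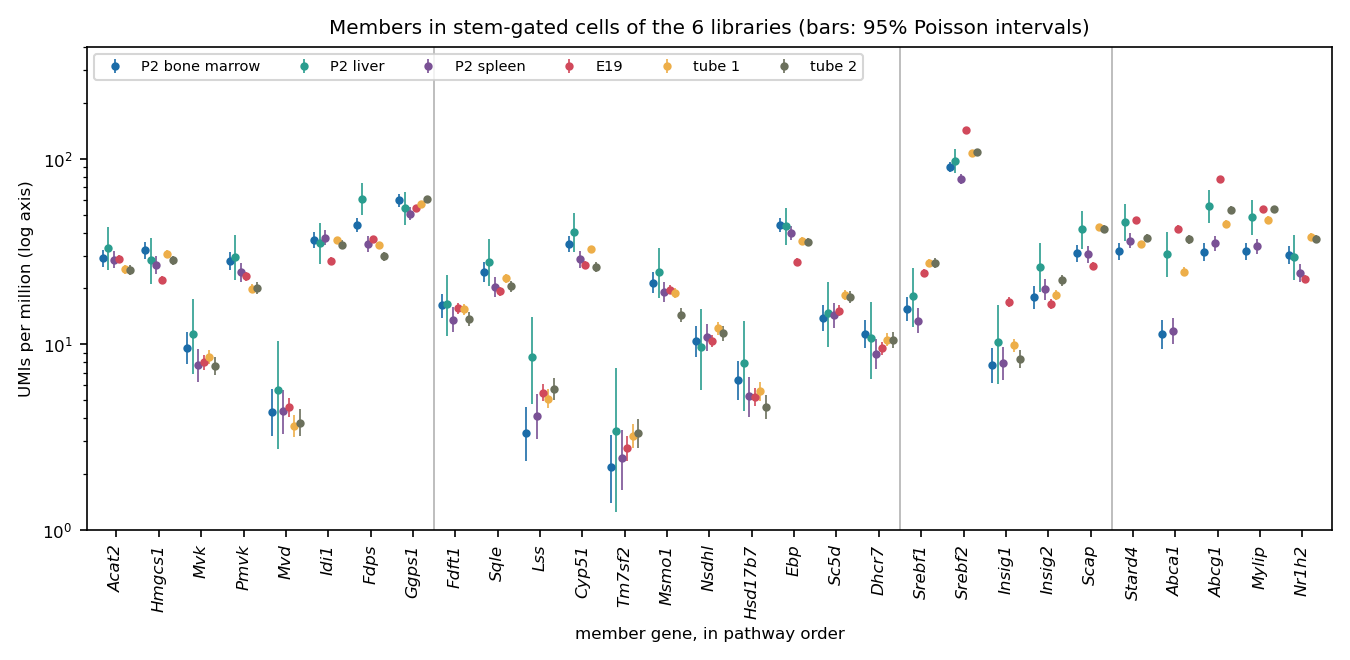
Level of each of the 29 members in stem-gated cells, in CPM on a log axis, with 1 point per library and 95% Poisson intervals; grey lines part the mevalonate branch, the sterol branch, the SREBP loop and the transport group. The points of most enzymes lie close together, though Lss and Fdps spread by a larger ratio than Srebf2. Abca1 spreads from 11.3 to 42.1 and Srebf2 from 77.8 to 144.

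Among the first enzymes, Acat2 (which condenses acetyl-CoA) ranged from 25.1 to 33.0 CPM over the libraries, Hmgcs1 (HMG-CoA synthase) from 22.2 to 32.2, and the 2 mevalonate kinases Mvk and Pmvk from 7.65 to 11.4 and 19.96 to 29.6. Mvd, the decarboxylase that yields the first isoprenoid, ranged from 3.64 to 5.69 CPM and its isomerase Idi1 from 28.2 to 37.6. Fdps, which makes farnesyl diphosphate, varied most of this branch, from 29.8 in tube 2 to 60.9 in P2 liver, and Ggps1 ranged from 50.6 to 60.3. The Fdps interval in P2 liver, 49.9 to 73.6 CPM, was wide but lay above those of all other libraries. Intervals also parted without liver, as for Pmvk, with 25.0 to 31.3 CPM in P2 bone marrow and 18.8 to 21.2 in tube 1.

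On the sterol branch, squalene synthase Fdft1 ranged from 13.6 to 16.5 CPM, the epoxidase Sqle from 19.3 to 27.9 and the cyclase Lss from 3.35 to 8.54. Cyp51, which removes the first methyl group of lanosterol, ranged from 26.2 to 40.4 CPM, and Msmo1, Nsdhl and Hsd17b7, which remove the others, from 14.4 to 24.5, from 9.68 to 12.2 and from 4.60 to 7.97. The reductase Tm7sf2 was between 2.17 and 3.42 CPM, Sc5d between 13.9 and 18.4, and Dhcr7, a reductase of the final step, between 8.90 and 11.4. Tm7sf2, Mvd and Lss had the fewest UMIs, and small differences in them were not detectable at this depth.

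In the control loop, Srebf1, the SREBP tied mainly to fatty acid genes, stood at 15.6 CPM in P2 bone marrow, 18.2 in P2 liver, 13.4 in P2 spleen, 24.3 in E19, 27.5 in tube 1 and 27.4 in tube 2. Insig1, itself a target of SREBP, was at 16.9 CPM in E19 and 7.78 to 10.2 in the P2 libraries. Insig2 ranged from 16.4 to 26.2 CPM and Scap from 26.4 in E19 to 42.9 in tube 1. Of the remaining transport genes, Stard4 ranged from 31.7 to 46.6 CPM, Mylip from 31.8 to 53.4 and Nr1h2 from 22.5 in E19 to 38.0 in tube 1. For Srebf1 and Nr1h2 the 2 tubes were above the pooled bone marrow and spleen. The same held for Srebf2, Insig1, Scap, Abca1, Abcg1 and Mylip, and for the enzymes Lss, Tm7sf2, Nsdhl and Sc5d. Some intervals overlapped, as for Insig1, with 7.44 to 9.31 CPM in tube 2 and 6.44 to 9.66 in P2 spleen. The enzymes Acat2, Pmvk, Mvd, Idi1, Fdps, Msmo1 and Ebp went the other way, lower in both tubes. The share of all genes in either direction was not counted. The tubes also differ from the pool in depth, batch, transgenes, tamoxifen and software version, and the cause was not tested.

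The cells of the pool that carried other markers gave a contrast between classes within the same libraries. The sterol export genes were higher in stem-gated cells than in granulocyte-monocyte progenitors (GMP, marked by Mpo, Elane and similar genes) and erythroid cells (marked by Klf1 and similar genes). In both of these classes they were close to absent, while B cells varied by library, as given below. In P2 bone marrow Abca1 was at 11.3 CPM in 1645 stem cells, 0.7 in 1301 GMP and 1.6 in 707 erythroid cells. Abcg1 was at 31.5, 3.2 and 1.7 CPM in the same 3 classes. In liver the values of Abca1 were 30.7, 1.6 and 1.0, and in spleen 11.8, 1.1 and 0.7. Srebf2 was also highest in stem cells of bone marrow, with 89.9 CPM in stem cells, 30.6 in GMP and 33.7 in erythroid cells.

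The enzymes as a group did not follow the export genes. Their sum in bone marrow was 489 CPM in GMP, 432 in stem cells and 407 in erythroid cells, and in spleen 429, 382 and 345. In liver it was 471, 466 and 411 CPM, and there the intervals of GMP and stem cells overlapped. Fdps was the clearest exception to a flat profile, with 127 CPM in GMP against 43.9 in stem cells of bone marrow, 144 against 60.9 in liver and 94.7 against 34.8 in spleen. Hmgcs1, by contrast, was at 32.2 CPM in stem cells and 14.6 in erythroid cells of bone marrow, and Stard4 at 31.7 and 20.9. The Poisson intervals of GMP lay above those of stem cells in all 3 pooled libraries for 2 members (Fdps and Ebp), against 15.4% of 11349 genes, and below for 6 (Ggps1, Srebf2, Stard4, Abca1, Abcg1 and Mylip), against 36.4%.

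In erythroid cells 1 member was above the stem level in all 3 libraries (Pmvk), against 18.2% of genes, and 10 were below, against 39.5%. Those 10 were Hmgcs1, Ggps1, Cyp51, Msmo1, Srebf2, Scap, Stard4, Abca1, Abcg1 and Mylip. B cells (Cd79a, Ebf1) had 1 member above, Mylip, against 8.13% of genes, and 2 below, Acat2 and Stard4, against 21.9%. None of these counts of members is above the share over all genes. Mylip in B cells reached 51.7, 92.2 and 59.5 CPM in bone marrow, liver and spleen, against 31.8, 48.4 and 33.7 in stem cells. The Abca1 interval of B cells lay above that of stem cells in P2 spleen and tube 2. It lay below in P2 bone marrow, P2 liver and E19. For Abcg1 the B cell interval was below in P2 bone marrow and P2 spleen and overlapped in P2 liver, E19 and tube 2. The depth and the share of dividing cells moved with class. The median GMP and erythroid cell of bone marrow had 15032 and 12098 UMIs and the median stem cell 6033, and 86.5% and 96.6% of them had at least 3 of 8 mitotic genes, a rule that deeper cells pass more easily, against 40.4% of stem cells. The part of depth and division in the class levels was not tested.

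**Figure D2:**
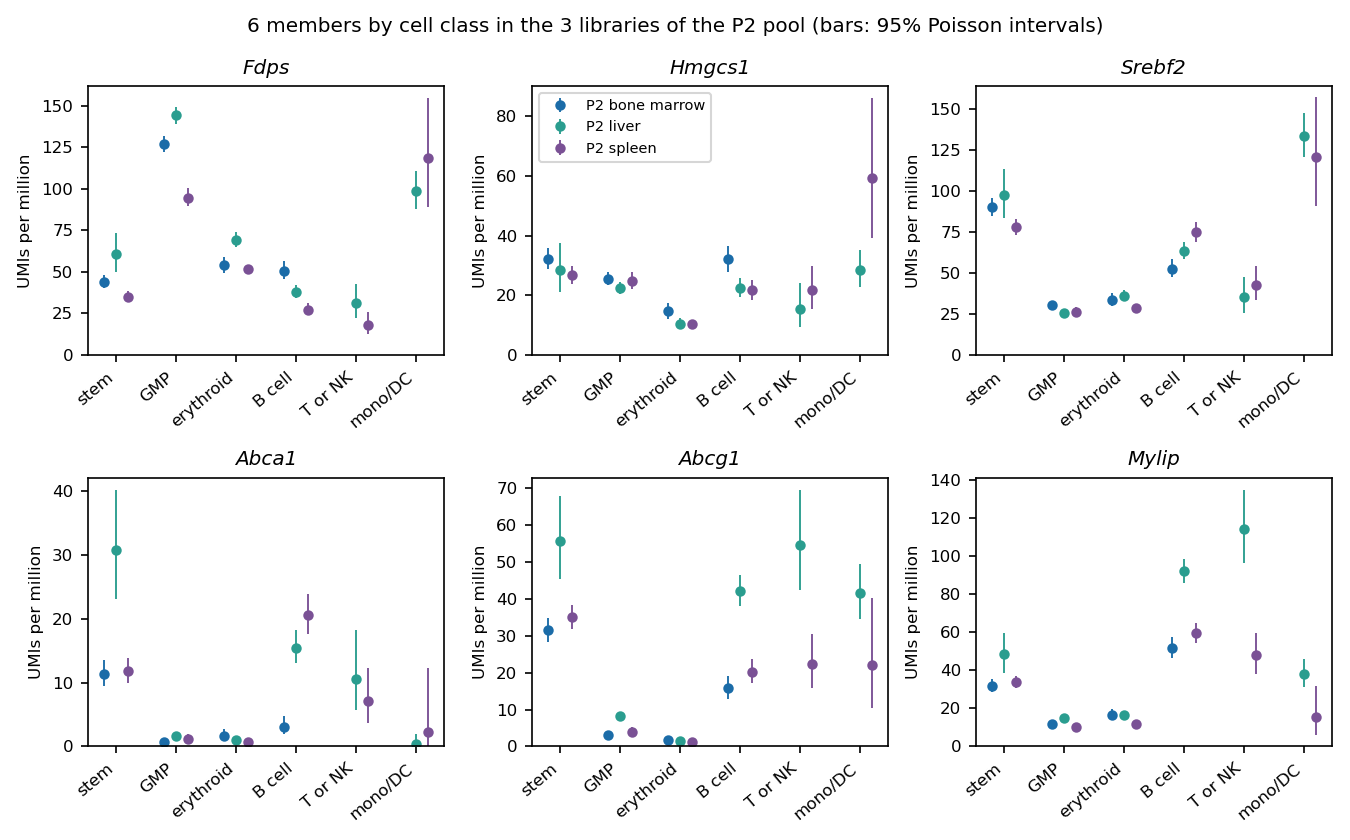
Level of 6 members by cell class in bone marrow, liver and spleen of the P2 pool, in CPM with 95% Poisson intervals; GMP are granulocyte-monocyte progenitors and mono/DC monocyte or dendritic cells. Abca1 and Abcg1 are near 0 in GMP and erythroid cells, Fdps is highest in GMP and mono/DC, and Srebf2 is high in stem cells and mono/DC.

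Smaller classes differed from stem cells in other members. Monocyte or dendritic cells had 133 CPM of Srebf2 in liver (346 cells) and 121 in spleen (62 cells), above the stem levels of 97.3 and 77.8, while Abca1 was at 0.3 and 2.2 CPM there. Spleen cells of this class also had 59.3 CPM of Hmgcs1, against 26.7 in stem cells. Neutrophils, found in tube 2 (256 cells), had the lowest enzyme sum, 207 CPM against 373 in the stem cells of that tube, with Sqle at 1.1, Idi1 at 7.3 and Fdps at 10.7 CPM. Msmo1 went the other way, at 27.2 CPM against 14.4. Their export genes were not low: Abca1 was at 47.4 and Abcg1 at 71.1 CPM, against 36.8 and 53.0.

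Within stem-gated cells, 9 of the 19 enzymes fell in dividing cells and none rose. Cells with at least 3 of 8 mitotic genes (among them Top2a, Mki67 and Cenpf) were compared with cells that had at most 1, paired 1 to 1 on total UMIs within a library. The pool, E19, tube 1 and tube 2 each gave a sum for either arm, from 1189 pairs in E19 to 281 in tube 2. Of the 29 members, 11 fell and 2 rose in mitotic cells by edgeR's quasi-likelihood test with a term for source, at an adjusted p below 0.05 over 12467 genes. Of all genes tested, 9.46% were called lower and 10.8% higher. Of the 11, 9 were enzymes, from Hmgcs1 near the start of the pathway to Hsd17b7 near its end. The median log2 fold change was -0.46 over the 19 enzymes, -0.18 over the 29 members and -0.01 over all genes tested.

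The enzyme with the largest fall was Mvd. Its CPM in non-mitotic and mitotic cells was 5.7 and 2.7 in the pool, 6.3 and 1.7 in E19, 5.3 and 2.5 in tube 1, and 6.0 and 2.6 in tube 2, so the arms did not overlap (log2 fold change -1.28 ± 0.24 SE, adjusted p = 0.00082). Msmo1 went from 23.4 to 14.9 CPM in the pool, from 23.1 to 12.6 in E19, from 29.1 to 13.3 in tube 1 and from 20.6 to 12.5 in tube 2 (-0.81 ± 0.12, adjusted p = 5.5e-05). Cyp51 went from 39.7 to 26.1, from 31.9 to 17.9, from 48.4 to 25.5 and from 29.2 to 20.9 CPM in the same order (-0.68 ± 0.10, adjusted p = 4.9e-05). For these 3 enzymes every source had less in mitotic cells, and every mitotic value was below every non-mitotic one.

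Idi1 fell by 0.64 ± 0.09 on the log2 scale (adjusted p = 7.4e-05), from 43.3 ± 7.43 CPM to 26.3 ± 3.35 (mean ± SD, n = 4 sources). Sqle fell by 0.68 ± 0.11 (adjusted p = 0.000196), from 28.0 ± 5.41 CPM to 16.8 ± 2.16. Hmgcs1 fell by 0.55 ± 0.10 (adjusted p = 0.000526), from 36.2 ± 7.54 CPM to 24.1 ± 3.99. Fdps, Hsd17b7 and Fdft1 fell by 0.47, 0.86 and 0.46, with adjusted p of 0.00169, 0.00684 and 0.0208. All 6 had lower values in each of the 4 sources, with no overlap of the arms. For 2 of them the highest mitotic and lowest non-mitotic value lay close, at 27.4 and 27.7 CPM for Hmgcs1 and 14.9 and 15.3 for Fdft1. The share of all genes with arms that do not overlap was not counted. Of the 10 enzymes that were not called, Lss (-0.57) and Dhcr7 (-0.42) also had arms that did not overlap, and Ebp (0.26) was the highest.

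Outside the enzymes the loop split. Srebf2 went from 93.4 to 74.0 CPM in the pool, from 158 to 121 in E19, from 136 to 108 in tube 1 and from 133 to 111 in tube 2, lower in every source although the arms overlap between sources (-0.28 ± 0.06, adjusted p = 0.0025). Insig1, a target of SREBP that damps it, fell by 0.47 ± 0.14 (adjusted p = 0.0229). The 2 members that edgeR called higher were genes on the LXR side, and DESeq2 called neither. Mylip rose by 0.27 ± 0.09 (adjusted p = 0.0376) and Abcg1 by 0.23 ± 0.07 (adjusted p = 0.036), with higher values in 4 of 4 sources for both. In Abcg1 the means were 57.5 ± 18.1 and 51.2 ± 15.6 CPM, and tube 2 barely differed with 55.9 and 55.7. Abca1, at -0.03, was not called.

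**Figure D3:**
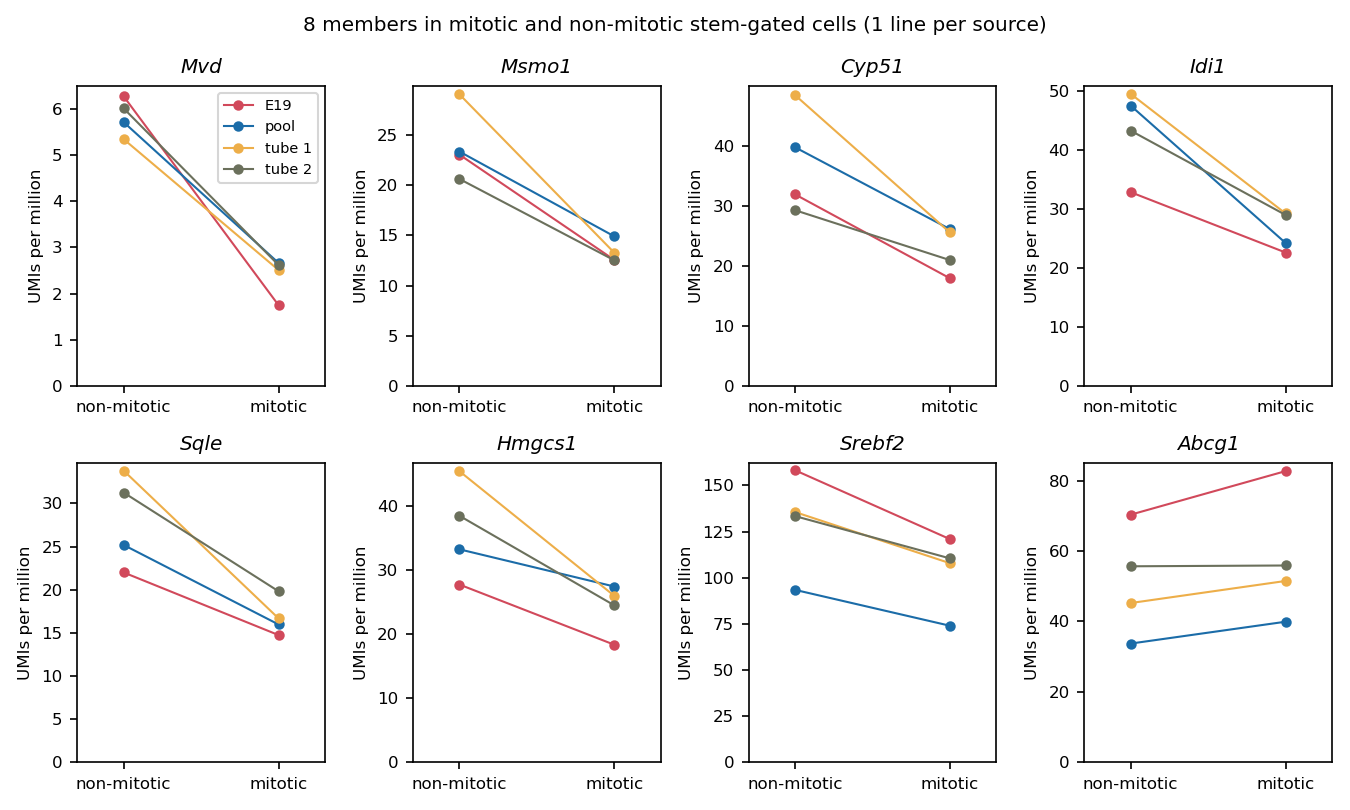
Level of 8 members in non-mitotic and mitotic stem-gated cells in CPM, with 1 line for each of the 4 sources and axes from 0. The lines of the 6 enzymes and Srebf2 fall in every source, while those of Abcg1 rise or stay level.

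Other lipid genes moved in part with the enzymes. Of 12 genes of fatty acid synthesis, 10 were tested and 4 fell: Acaca, Fasn, Fads2 and Elovl6, by 0.51, 0.35, 0.29 and 0.20 on the log2 scale. Among 8 genes of SREBP processing and turnover edgeR called 0, with 0 at an unadjusted p below 0.05. Of 10 genes that use isoprenoids, 1 rose, the farnesyltransferase subunit Fntb (0.33), and of 9 tested genes of sterol handling 1 fell, Gramd1b (-0.47), a carrier of plasma membrane cholesterol. The arms also differed in Ahnak, at 52.2 CPM in non-mitotic and 18.1 in mitotic cells of the pool, and in the summed stem markers, at 2926 and 2813 CPM in the pool and 4773 and 3629 in E19. The 8 megakaryocyte markers, of which 5 to 6 had a UMI in each arm, were lower in mitotic cells of every source, from 54.5 to 32.7 CPM in the pool, 46.0 to 25.9 in E19, 61.3 to 44.6 in tube 1 and 67.1 to 52.0 in tube 2. The 8 B cell markers went from 81.8 to 45.3 CPM in the pool, 38.0 to 35.1 in E19, 40.7 to 39.3 in tube 1 and 76.1 to 45.6 in tube 2; the part of all these in the result was not tested. The smaller changes lost their call, but kept their direction, when a source was left out: Mylip was lost without the pool or without tube 1 (adjusted p = 0.135 and 0.162), and Abcg1 without E19, the pool or tube 1 (0.209, 0.0658 and 0.121). Fdft1 (0.0639 and 0.204) and Insig1 (0.151 and 0.108) were lost without E19 or without tube 1, and Mylip turned to -0.070 when cells were not paired on UMIs. DESeq2 called 8 members, all lower. It did not call Abcg1 (adjusted p = 0.342), Mylip (0.216), Insig1 (0.286), Fdft1 (0.233) or Hsd17b7 (0.102). Under the stricter stem class edgeR did not call Abcg1 (adjusted p = 0.118), Mylip (0.0691) or Fdft1 (0.0529).

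Lmna and Ahnak, a nuclear lamina gene and a large scaffold gene, split the stem-gated cells another way. Cells with at least 1 UMI of either were paired with cells that had none, on total UMIs within a library. In matched cells 4 members rose and 1 fell, against 8.08% of 13519 genes called higher and 11.8% called lower. The 4 were Srebf2, Abca1 and 2 of the 19 enzymes, Hmgcs1 and Msmo1, and the 1 that fell was Scap. The median log2 fold change was 0.07 over the 29 members and -0.00071 over all genes, and 24 of the 29 members were above 0.

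Hmgcs1 was at 43.5 CPM with and 24 without such UMIs in the pool, 24.7 and 21.8 in E19, 35.2 and 25.9 in tube 1, and 30.6 and 23.3 in tube 2 (log2 fold change 0.39 ± 0.07, adjusted p = 0.000205, edgeR). It was higher in all 4 sources, with the widest gap in the pool and the narrowest in E19. Msmo1 was at 32.5 and 16.9 CPM in the pool, 20.5 and 17.9 in E19, 20.7 and 16.6 in tube 1, and 15.7 and 12.8 in tube 2 (0.33 ± 0.09, adjusted p = 0.00711). Srebf2 was at 93.7 and 83.9 CPM, 160 and 138, 116 and 105, and 112 and 97.4 in the same order (0.12 ± 0.03, adjusted p = 0.0108). Its change was small and of like size in each source.

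Abca1 was the member with the smallest p, but it did not move in every source. It was at 55.4 CPM with and 39.6 without in E19, 31.2 and 20.5 in tube 1, 36.2 and 25.3 in tube 2, and 12.8 and 13.8 in the pool (0.45 ± 0.07, adjusted p = 2.2e-05). Thus the pool went slightly the other way. Scap was at 32.7 and 33.2 CPM in the pool, 27.1 and 31.1 in E19, 41.1 and 44.2 in tube 1, and 38.7 and 42.4 in tube 2 (-0.17 ± 0.05, adjusted p = 0.0173). Scap was lower in every source by a little. Abcg1, at -0.04, was not called, and the other 23 members lay between -0.12 (Ebp) and 0.45 (Tm7sf2, a member of few UMIs).

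**Figure D4:**
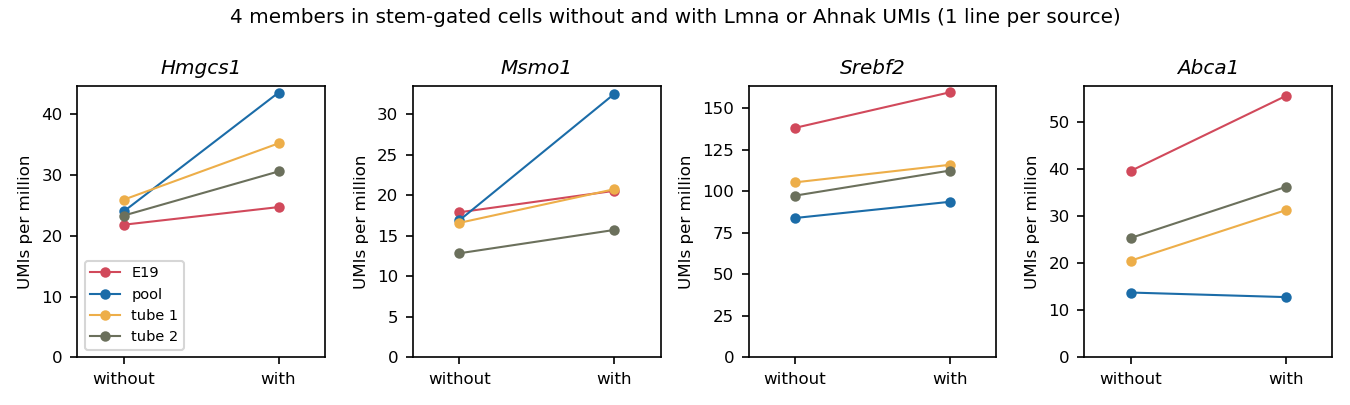
Level of Hmgcs1, Msmo1, Srebf2 and Abca1 in stem-gated cells without and with UMIs of Lmna or Ahnak, in CPM, with 1 line for each of the 4 sources and axes from 0. Hmgcs1, Msmo1 and Srebf2 are higher with such UMIs in 4 of 4 sources and Abca1 in 3.

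The result changed with how the cells were chosen. Cells with UMIs of both genes, against cells with neither, gave 13 members higher and 1 lower and a median of 0.46, against 5.18% of 11207 genes called higher and 5.61% lower. The members that rose included enzymes that fell in mitotic cells, with Fdps at 1.1, Fdft1 at 0.99, Mvd at 0.98, Idi1 at 0.96 and Cyp51 at 0.93. The arms held 115 cells each in the pool, 38 in E19, 282 in tube 1 and 205 in tube 2. Summed mitotic genes were lower in cells with both than with neither, at 812 and 1345 CPM in the pool, 1057 and 1632 in tube 1 and 1035 and 1494 in tube 2, and were 619 and 530 in E19; their part in the result was not tested. In that comparison the export genes did not go with the enzymes: Abcg1 fell by 0.63 (adjusted p = 0.000422) and Abca1 was at -0.052. With only cells of at most 1 mitotic gene, 5 members rose, against 3% of genes called higher and 4.31% lower, and the median was 0.22. The arms of the matched comparison differed in median mitotic genes, 1 and 1.5 in the pool, 2 and 3 in tube 1 and 3 and 4 in tube 2, and in summed stem markers, 3360 and 2841 CPM in the pool. The 8 monocyte or dendritic markers, of which 5 to 8 had a UMI in each arm, summed to more with Lmna or Ahnak in every source, at 26.4 and 10.0 CPM in the pool, 11.8 and 6.3 in E19, 6.0 and 4.8 in tube 1 and 14.8 and 5.6 in tube 2. The 8 GMP markers summed to less in every source, at 76.2 to 288 CPM with and 102 to 346 without. The part of these markers in the result was not tested. DESeq2 called only 2 of the 5 members that edgeR called in the matched cells, and it did not give all 5 an adjusted p. Srebf2 was not called by DESeq2 (adjusted p = 0.145), in the non-mitotic cells (0.479), without E19 (0.0629) or without tube 2 (0.0742). The call of Scap was lost in most settings: by DESeq2 (0.201), without E19 (0.0551), tube 1 (0.125) or tube 2 (0.0639), without the highest doublet scores (0.0549), in the stricter stem class (0.0591), without matching (0.0841), in thinned cells (0.0606), with both genes (0.597) and in non-mitotic cells (0.75).

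Whether the members' response to these 2 splits differed between E19 and P2 was tested as an interaction, added after the data were seen. E19 is 1 source against 3 of P2, so the spread comes from the P2 sources alone and the test says little about E19. None of the 29 members was called. For Lmna or Ahnak it called 0 of 13519 genes by edgeR (599 at an unadjusted p below 0.05), and for the mitotic split 7 of 12467. Fdps had the smallest p of the members in the Lmna or Ahnak split, with a difference of -0.53 (edgeR, adjusted p = 0.975). It also had the smallest in the mitotic split, with 0.44 (edgeR, adjusted p = 0.51).

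Of the wider lipid lists, few genes followed Lmna or Ahnak. Fads2, a fatty acid desaturase, rose by 0.21 ± 0.05 among 10 tested genes of fatty acid synthesis, and Nceh1, a cholesteryl ester hydrolase, by 0.24 ± 0.04 among 9 of sterol handling. In the SREBP processing list of 8, Tmem97 was lower, at -0.18. Of the 10 genes that use isoprenoids, Pdss1 and Coq2, which build coenzyme Q, were lower, at -0.25 and -0.14.

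**Figure D5:**
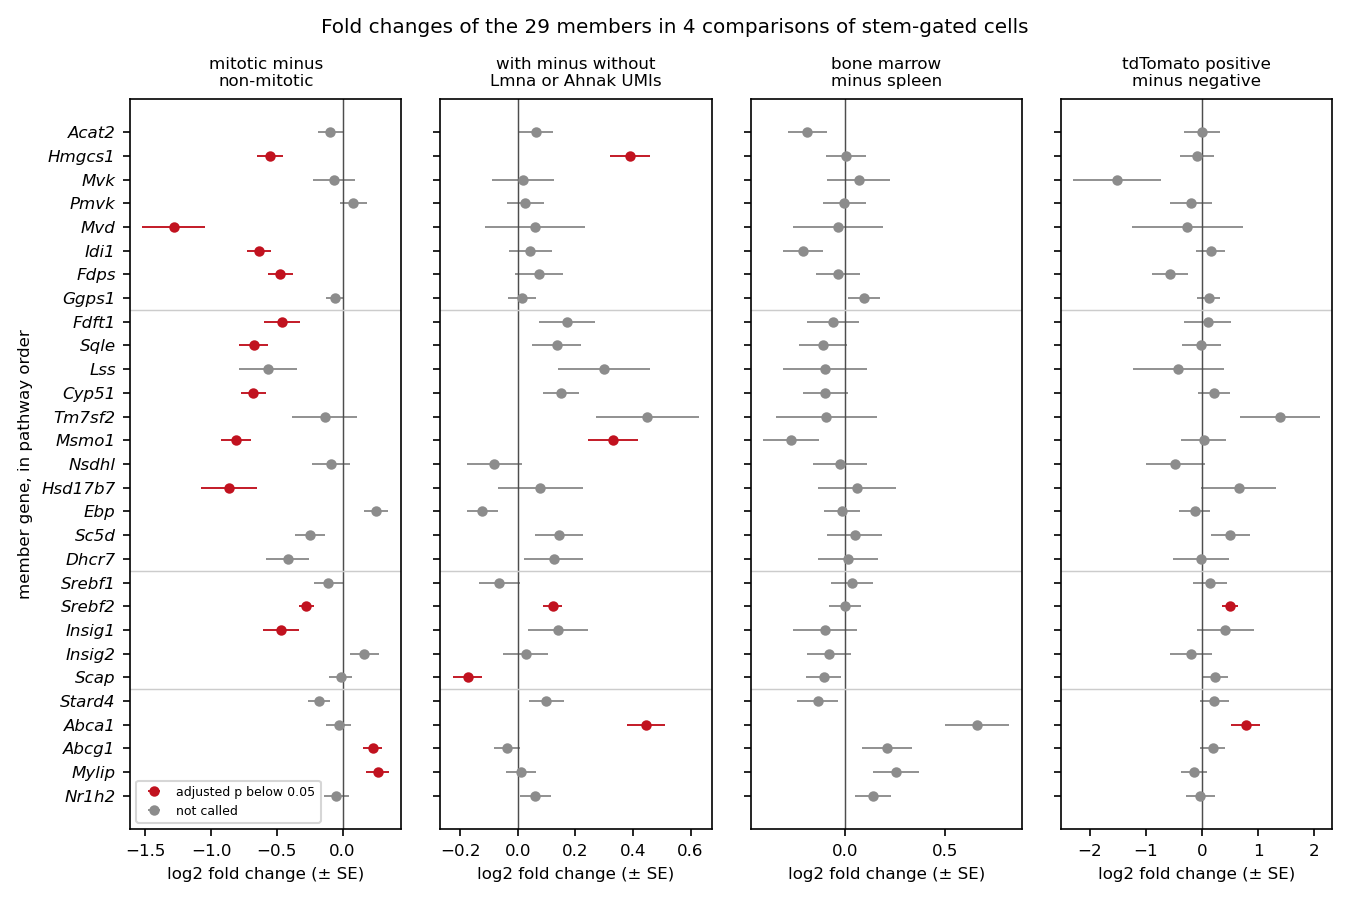
Log2 fold change with its standard error for each of the 29 members in the 4 comparisons of stem-gated cells; red points have an adjusted p below 0.05 and each panel has its own axis. The enzymes lie mostly left of 0 in mitotic cells, while Srebf2 and Abca1 are red and right of 0 in the Lmna or Ahnak and tdTomato panels.

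Bone marrow and spleen were compared in the P2 pool and in the tdTomato-negative cells of each pup. No member was called by edgeR at an adjusted p below 0.05, while 2 of the 29 had an unadjusted p below 0.05 and DESeq2 also called none. Over all genes 0.0939% were called higher in bone marrow and 0.0434% lower, and the members' median log2 fold change was -0.03. The 3 members with the smallest p were Abca1 (0.66 ± 0.16, adjusted p = 0.178), Mylip (0.25 ± 0.12, adjusted p = 0.57) and Idi1 (-0.21 ± 0.10, adjusted p = 0.586).

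Abca1 was at 11.3 CPM in marrow and 11.8 in spleen of the pool, 62.3 and 30.4 in pup 1, and 31.7 and 16.4 in pup 2. Both pups were higher in bone marrow, and the pool was level. Mylip was at 31.8 and 33.7 CPM in the pool, 77.1 and 48.8 in pup 1, and 52.6 and 40.2 in pup 2, the same pattern. In the pups alone edgeR called 3 members higher in bone marrow: Abca1 (0.93, adjusted p = 1.76e-10), Abcg1 (0.44) and Mylip (0.43). Msmo1 fell by 0.48, and 1650 genes were called in place of 19 (4.37% of genes higher and 6.95% lower). That fit holds only 2 pups, so its p-values lean on a spread shared over all genes. The small value for Abca1 does not stand for more animals than the test with the pool. The marrow of pup 1 held only 97 stem cells, against 1146 of its spleen. Ahnak was at 118 and 66.7 CPM in marrow and spleen of pup 1, 61.9 and 39.8 in pup 2, and 31.9 and 28.1 in the pool; its part in the result was not tested.

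In the pups, tdTomato-positive stem cells were compared with negative ones, with a term for pup. Of the members 2 rose and none fell, against 1.14% of 13786 genes called higher and 3.07% lower. Srebf2 was at 163 CPM in positive and 105 in negative cells of pup 1, and 158 and 107 in pup 2 (0.50 ± 0.15, adjusted p = 0.0239). Abca1 was at 54.4 and 32.7 CPM in pup 1, and 51.2 and 25.4 in pup 2 (0.78 ± 0.25, adjusted p = 0.0495). For both genes the positive cells of either pup were above the negative cells of both. Tm7sf2, the member with the next smallest p, was at 17.4 and 3.4 CPM in pup 1 and 2.0 and 3.1 in pup 2, and was not called (adjusted p = 0.358).

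Of the other lipid genes, Nceh1 was the 1 called, at 0.64 ± 0.19 (adjusted p = 0.021). The enzymes had a median of -0.01 and edgeR called none of the 19, with 1 at an unadjusted p below 0.05; DESeq2 called none either, nor did it call Srebf2 or Abca1 (adjusted p = 0.346 and 0.506). With background-subtracted hashtags Srebf2 was at 0.14 (adjusted p = 0.651, edgeR). The positive arms were small, 33 stem cells of pup 1 and 28 of pup 2, with medians of 12930 and 17790 UMIs against 24078 and 20663. They had fewer mitotic genes (median 1 against 3 in both pups), more stem marker CPM (4806 against 3585 in pup 1, 4689 against 3075 in pup 2), and sat in the other tube than the negative cells of the same pup. Among cells with at most 1 mitotic gene Srebf2 was at 0.45 (adjusted p = 0.599) and Abca1 at 0.09 (0.963), and against the 3 negative cells nearest in UMIs at 0.30 and 0.24 (adjusted p = 0.998 for both), so neither call held there.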

How the data were processed

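The deposited matrices hold raw UMI counts from 10x Genomics Chromium 3′ v3 libraries. Cell Ranger made these counts, in version 7.0.0 for the pool, 7.1.0 for E19 and 8.0.1 for the tubes, per the file headers. The genome is mm10 and 7.0.0 the one version listed, per the submitters' processing notes. The 2 hashtag samples hold only reference lists and were not used.

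The 29 members, the marker lists and the wider gene lists were chosen with earlier results of these data known. All members were named. In each comparison those with an adjusted p below 0.05 were described, or the 3 with the smallest p where fewer were called, and up to 4 called genes of the wider lists, of which 1 is not reported here. UMI counts of stem-gated cells were summed per source and arm and fitted over all genes with edgeR 4.0.16 in R 4.3.3 (filterByExpr, TMM, glmQLFit, glmQLFTest, Benjamini-Hochberg). A term for source pairs the arms, since both arms of a source come from the same library or animals. Matched cells differed by at most 10% in total UMIs. Arms of 1 library share its preparation, and the 2 to 4 sources are not all separate animals. With so few sources, edgeR tempers each gene's spread by that of all genes. The p-values therefore do not measure a gene's own spread over animals, least of all with 2 pups. In the tubes a hashtag needed 3 times the second and its own 99th percentile of background. Doublets were kept, and an alternative removed the highest Scrublet scores (scanpy 1.11.5). Poisson intervals came from scipy 1.17.1. The fit was tested on simulated counts. DESeq2 1.42.0 and the other settings are compared below. Gene upstream sequences are from RefSeq on GRCm38.p6.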

Additional observations from a re-analysis of the deposited data

How the results depend on the processing

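Each source is 1 library or 1 to 3 libraries of the same mice, so the spread over animals is known only from 2 pups, and small differences in the members of fewest UMIs (Mvd, Tm7sf2, Lss) were not detectable at this depth. For Lmna or Ahnak UMIs, 2691 genes and 5 members were called with the median member at 0.07; the counts were 927 and 2 with DESeq2, 4258 genes without matching on total UMIs, 841 genes in non-mitotic cells (median member 0.22), 8 members in thinned cells (median 0.20), and 1210 genes and 14 members with both genes against neither (median 0.46), where Abca1 turned to -0.052. For mitotic genes, 2531 genes and 13 members were called with the median member at -0.18; the counts were 1046 and 8 with DESeq2, and 7240 genes without matching (median -0.26) and 4482 in thinned cells (median -0.29). The median was -0.21 without the highest doublet scores and -0.15 under the stricter stem class. Without matching, Mylip turned to -0.070 and Scap to 0.20.

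For marrow and spleen, 19 genes and 0 members were called; the counts were 245 genes and 1 member without the filter, 7 genes under the stricter class, 29 in non-mitotic cells and 5 with background-subtracted hashtags. For tdTomato, 580 genes and 2 members were called. There were 146 genes and 0 members with DESeq2, 1 gene and 0 members both in non-mitotic cells and against the 3 nearest negative cells (median member 0.16), 0 members without the filter, and 1 member each with DESeq2 size factors, the stricter class and background-subtracted hashtags (median -0.11).

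Without the replicate block, the term that pairs the arms of a source, edgeR called 0 genes and 0 members for Lmna or Ahnak, 309 and 4 for mitotic genes, 0 and 0 for marrow and spleen, and 147 and 0 for tdTomato, with 230, 1274, 82 and 2046 genes at an unadjusted p below 0.05.

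Leaving out each source in turn gave 1456 (without tube 1) to 2671 genes, 3 (without E19) to 5 members and a median member of 0.02 to 0.14 for Lmna or Ahnak, 1465 (without E19) to 2348 genes, 9 to 13 members and a median of -0.26 (without E19) to -0.17 for mitotic genes, and 101 (without pup 2) to 1650 genes (without the pool), 0 to 4 members and a median of -0.05 to -0.00041 for marrow and spleen. For tdTomato this was not run, since it leaves no residual degrees of freedom. Of the values of called members under all these settings, 49 of 69 kept their call for Lmna or Ahnak, 124 of 156 for mitotic genes and 5 of 18 for tdTomato. Values to which DESeq2 gave no adjusted p were left out of these counts.

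The summed enzyme CPM of stem cells changed by construction when mitochondrial, ribosomal and hemoglobin UMIs were taken out of the total, to 582 in P2 bone marrow, 617 in P2 liver, 536 in P2 spleen, 505 in E19, 492 in tube 1 and 460 in tube 2; it stayed inside its interval over all barcodes. For the other values the cause of a change was not tested.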
